A study of Mus musculus with 27 samples.

Results

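Axon genes, 8 in all, were followed in the brains of mice that had received an autoantibody against IgLON5, a neuronal cell surface protein, by intraventricular infusion. They are the neurofilament subunits Nefl, Nefm, Nefh and Ina, the growth cone genes Gap43 and Stmn2, and the injury genes Atf3 and Sprr1a. They were chosen by symbol, as the rows of the deposited count matrix whose Ensembl identifier carries one of these names in the GENCODE M21 annotation, and they are 8 of 55487 rows. All 8 were found, and 7 passed the count filter of the tests (at least 10 counts in at least 4 libraries), the exception being Sprr1a.

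The libraries came from male C57Bl/6J wild-type mice, 8 weeks of age at the start, whose right lateral ventricle was infused from an osmotic pump for 14 days at 0.25 μl/h. The PBS group received the vehicle, the pCtrl group (IgG in the labels) a human control IgG, and the α-IgLON5#1 group (LON5 in the labels) IgLON5 autoantibodies affinity-purified from the plasma of a single patient. The labels describe the control IgG as a human monoclonal, whereas the study's text describes IgG of a healthy subject, and the difference could not be settled here. RNA-seq of the cortex and hippocampus of the contralateral side gave 27 libraries from 14 mice, taking the number in a title as the mouse: PBS n = 5 cortices and 5 hippocampi, pCtrl n = 5 and 4, α-IgLON5#1 n = 4 and 4. The numbers of the α-IgLON5#1 mice lie between 8 and 17, a range that holds only 1 PBS mouse (mouse 14).

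Neurofilaments are the intermediate filaments of axons. The light (Nefl), medium (Nefm) and heavy (Nefh) chains and α-internexin (Ina) assemble into one polymer that sets axon calibre, and neurofilament light protein released into cerebrospinal fluid or blood is widely used as a measure of axonal damage. Gap43, a membrane phosphoprotein of growth cones, and Stmn2, a stathmin that binds tubulin, serve axon growth and repair and remain expressed in adult forebrain. Atf3, a transcription factor of the ATF/CREB family, and Sprr1a, a small proline-rich protein first known from keratinocytes, are nearly silent in uninjured neurons and are switched on in neurons whose axons are cut, Atf3 also in glia and immune cells under stress.

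All 8 genes are annotated as protein coding on GRCm38. Nefl (chr14:68083863-68089095, plus strand) lies within the span of Nefm (chr14:68082590-68124846, minus strand), and the annotation gives them 1108 shared exon bases on opposite strands. Ina (chr19:47014698-47025327, plus strand) shares 456 exon bases with Nt5c2 on the other strand. The strand setting of the authors' counting is not given in the sources used here, so a part of the Nefl, Nefm and Ina reads may not be assignable to a single gene. Nefh (chr11:4938754-4948064, minus), Stmn2 (chr3:8509360-8561606, plus), Gap43 (chr16:42248442-42340651, minus), Atf3 (chr1:191170296-191218039, minus) and Sprr1a (chr3:92483952-92485895, minus) share no exon bases with another gene.

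The promoters of the 2 injury genes are shown because these are the members with the lowest levels and include the one that changed most. Each sequence runs 5′ to 3′ on the gene's strand, from 250 bases before to 50 bases after the RefSeq start (GRCm38.p6), with Atf3 at chr1:191183284-191183583 and Sprr1a at chr3:92485832-92486131. The Atf3 start lies inside the annotated gene, downstream of its outer end at 191218039, and no other Atf3 start was searched. The Ina promoter was searched too and held no match to either motif below. Capitals mark matches on either strand to a CRE-like motif, TGACGTNA, or to an AP-1 motif, TGANTCA, which are binding sequences of ATF/CREB and of Fos and Jun dimers.
Atf3: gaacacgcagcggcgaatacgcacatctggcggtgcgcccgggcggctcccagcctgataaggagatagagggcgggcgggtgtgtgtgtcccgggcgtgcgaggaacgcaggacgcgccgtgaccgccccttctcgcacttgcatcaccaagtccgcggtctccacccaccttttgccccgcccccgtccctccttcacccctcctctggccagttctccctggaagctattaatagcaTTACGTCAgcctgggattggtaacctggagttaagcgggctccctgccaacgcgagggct
Sprr1a: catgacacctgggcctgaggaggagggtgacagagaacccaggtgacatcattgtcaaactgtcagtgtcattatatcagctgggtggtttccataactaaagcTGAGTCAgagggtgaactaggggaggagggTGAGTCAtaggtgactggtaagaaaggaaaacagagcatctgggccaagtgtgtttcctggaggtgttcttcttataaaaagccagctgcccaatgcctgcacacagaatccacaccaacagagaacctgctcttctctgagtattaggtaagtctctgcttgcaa
The Atf3 sequence holds 1 CRE-like match, read on the opposite strand, and no AP-1 match, and the Sprr1a sequence holds 2 AP-1 matches and no CRE-like match. Of 32851 RefSeq promoters of this length, 2.93% hold a CRE-like match and 7.81% an AP-1 match. A match describes the letters only.

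Library totals ranged from 19385642 to 54199358 counts in the cortex and from 19428512 to 58550621 in the hippocampus. The labels give the cell type as neurons, but the tissue was not sorted: summed marker levels in CPM (counts scaled to a common library size after TMM normalization in edgeR) were 4142 to 6441 for astrocytes, 1712 to 4608 for oligodendrocytes and 254 to 818 for microglia. The tissue labels were checked with 8 genes of the dentate gyrus and CA fields, which summed to 703 to 917 CPM in hippocampi and 436 to 593 CPM in cortices. In PBS mice 6 of these 8 genes passed as lower in the cortex and 2 passed as higher. In such bulk samples, fewer cells of a type and less RNA per cell cannot be told apart. Some hippocampal libraries stood apart. The summed level of 8 cortical layer markers was 336 and 398 CPM in pCtrl mice 10 and 37 against 255 in each of pCtrl mice 15 and 75, and the summed level of 8 thalamic markers was 251 and 216 CPM against 152 and 142. The PBS hippocampus of mouse 74 held 3881 CPM of pituitary genes, and that of pCtrl mouse 10 held 218 CPM. The members' values against the pCtrl hippocampi are therefore also given without mice 10 and 37, a setting chosen after seeing the data. It leaves mice 15 and 75 as the only pCtrl hippocampi, so a call lost there can follow from the smaller group.

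Levels were compared between genes per kilobase of exon. In PBS hippocampi Gap43 stood at 103 ± 22.1 CPM per kb (mean ± SD, n = 5 as for the values that follow), Nefl at 77.2 ± 8.56, Ina at 52.5 ± 6.08, Stmn2 at 43.0 ± 3.85, Nefm at 31.1 ± 1.71 and Nefh at 12.995 ± 1.19. Atf3, at 0.327 ± 0.184 CPM per kb, was lower by more than an order of magnitude, and Sprr1a, at 0.0332 ± 0.0455, was at the limit of detection. The ranges of Gap43 and Nefl overlapped, as did those of Ina and Stmn2, while each other step in the order separated the libraries. PBS cortices had the same order, with Gap43 at 153 ± 16.7, Nefl at 72.8 ± 9.97, Ina at 59.0 ± 10.6, Stmn2 at 56.7 ± 3.85, Nefm at 34.0 ± 8.89, Nefh at 11.2 ± 0.956 and Atf3 at 0.464 ± 0.150 CPM per kb. There Nefl overlapped with Ina, and Ina with Stmn2. Counts were plentiful for 6 of the 7 tested members: over all 27 libraries Stmn2 had a higher mean CPM than 97.2% of tested genes and Nefh than 76.2%, whereas Atf3 was above 29.7% only and rested on 10 to 163 counts in a library.

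**Figure D1:**
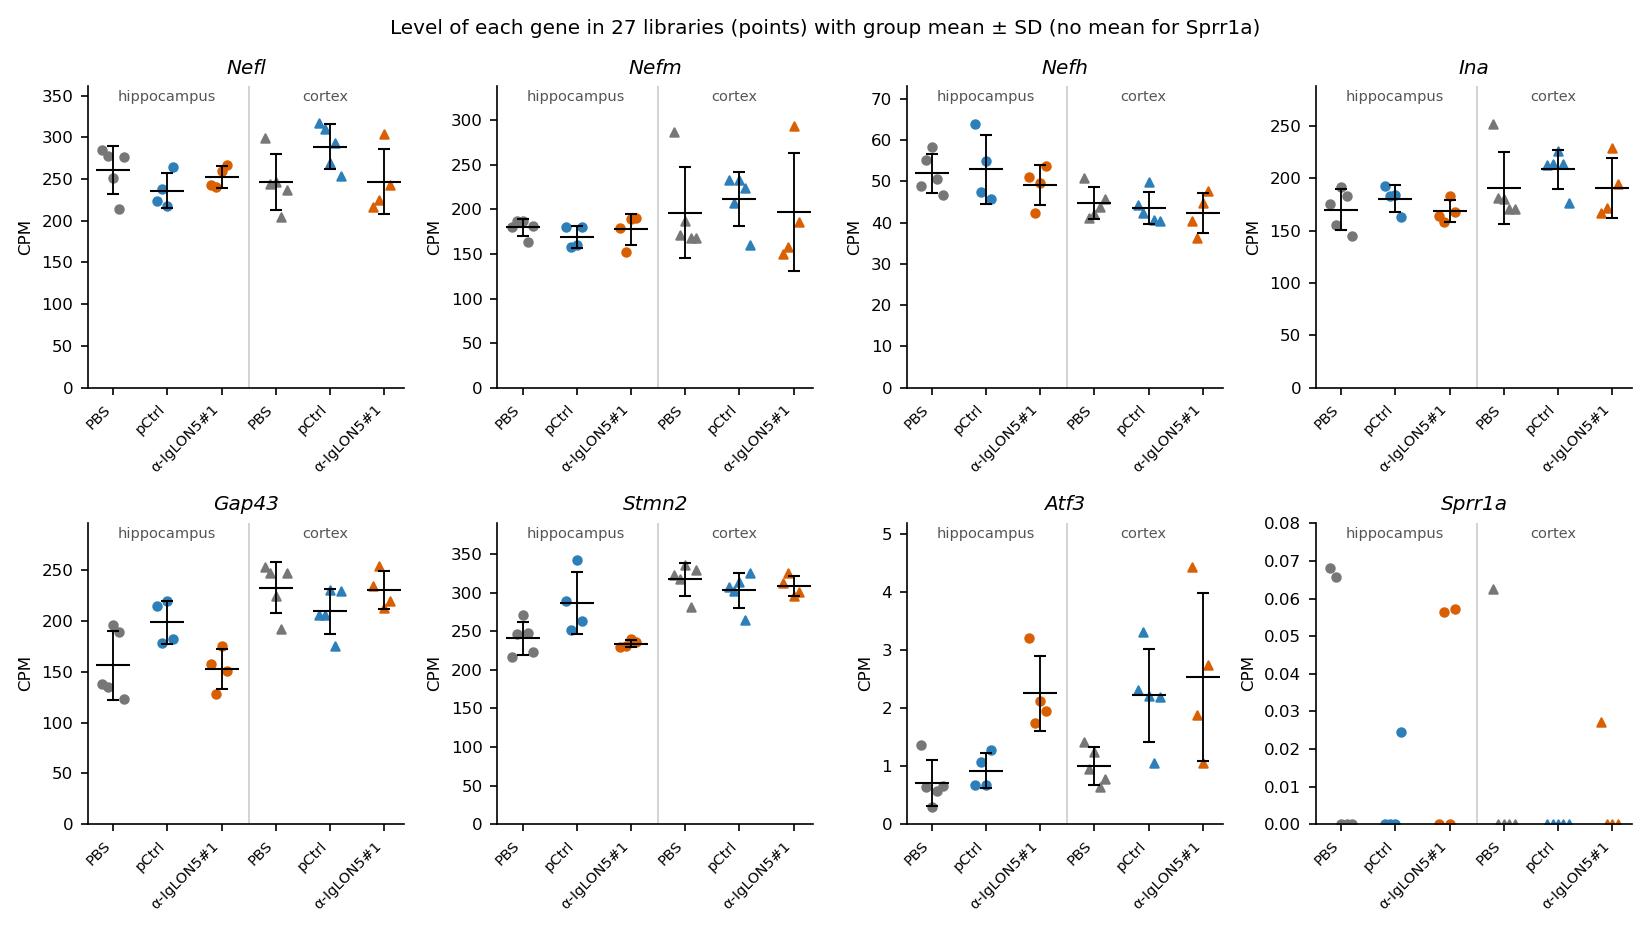
Normalized level (CPM, linear axes) of each of the 8 genes in every library, by tissue and treatment, with circles for hippocampus, triangles for cortex and bars for the mean ± SD of a group (none for Sprr1a). The 4 α-IgLON5#1 hippocampi lie above all other hippocampi for Atf3 (1.75 to 3.20 against at most 1.36 CPM), while the neurofilament panels show groups that overlap.

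In the hippocampus, α-IgLON5#1 was compared with pCtrl to ask whether the autoantibody changed the axon genes beyond a control IgG. Of the 7 tested members, 2 passed an adjusted p of 0.05 in edgeR's quasi-likelihood test, beside 7.01% of all 20271 genes tested. Atf3 rose 2.43-fold, the 1 member that passed as higher (4.23% of all genes) and the 1 that also had a fold change above 2 (2.45%), and Stmn2 fell by 18.3%, the 1 that passed as lower (2.78%). No neurofilament gene passed. The libraries of the 2 groups did not overlap for Atf3, Stmn2 and Gap43, 3 of 7 members, beside 11.7% of all genes. The median log2 fold change was -0.10 over the members and 0.00 over all genes.

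The neurofilament light chain stood at 242, 241, 259.9 and 267 CPM in the α-IgLON5#1 hippocampi of mice 8, 9, 16 and 17, at 224, 238, 218 and 265 CPM in the pCtrl hippocampi of mice 10, 15, 37 and 75, and at 285, 277, 251, 215 and 277 CPM in the PBS hippocampi of mice 14, 32, 33, 38 and 74. All 3 groups overlapped. The log2 fold change of Nefl was 0.10 (95% CI -0.13 to 0.32, adjusted p = 0.652 by edgeR) against pCtrl and -0.05 (95% CI -0.26 to 0.16) against PBS, and the upper bounds correspond to a 1.25-fold and a 1.119-fold level. Nefm was at 179, 152, 189 and 190.0 CPM under α-IgLON5#1, at 179.9, 158, 159.9 and 180.3 CPM under pCtrl, and at 179.9, 188, 187, 163 and 181 CPM under PBS. Its groups overlapped as well, with log2 fold changes of 0.07 (95% CI -0.28 to 0.42) and -0.02 (95% CI -0.35 to 0.31).

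Nefh, the heavy chain typical of large myelinated axons, stood at 51.0, 42.3, 49.5 and 53.8 CPM under α-IgLON5#1, at 63.9, 47.3, 55.0 and 45.6 CPM under pCtrl, and between 46.6 and 58.3 CPM under PBS. Its highest hippocampal value, 63.9 CPM, belonged to pCtrl mouse 10. Ina, which joins the triplet in central axons, stood at 164, 159, 183 and 168 CPM under α-IgLON5#1, at 193, 183, 184 and 163 CPM under pCtrl, and between 145 and 192 CPM under PBS. The log2 fold changes against pCtrl were -0.11 (95% CI -0.32 to 0.11) for Nefh and -0.10 (95% CI -0.33 to 0.13) for Ina. Without pCtrl mice 10 and 37 the differences from pCtrl were 0.01 for Nefl, 0.07 for Nefm, 0.09 for Nefh, whose sign turned, and -0.03 for Ina, with adjusted p from 0.858 to 0.995 in edgeR. With the composition covariate, whose limit is given below with Stmn2, they were 0.13, 0.30, 0.11 and 0.12, so that Ina turned sign as well, with adjusted p from 0.664 to 0.823. Ratios between subunits within a library also overlapped between the groups: the log2 ratio of Nefm to Nefl was -0.53 ± 0.116 in PBS hippocampi (n = 5), -0.48 ± 0.125 in pCtrl (n = 4) and -0.51 ± 0.104 in α-IgLON5#1 hippocampi (n = 4).

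Stmn2 was even across the α-IgLON5#1 hippocampi, at 229, 231, 241 and 236 CPM in mice 8, 9, 16 and 17. In pCtrl hippocampi it was 289.8, 252, 343 and 263 CPM in mice 10, 15, 37 and 75, and in PBS hippocampi 217, 246, 271, 248 and 223 CPM. The pCtrl group was thus the high group, above every α-IgLON5#1 library and overlapping with PBS, and its 2 highest values belonged to the mice with the highest cortical layer and thalamic sums. The sum of 8 pan-neuronal genes separated these groups too, at 5533 to 5829 CPM in α-IgLON5#1 and 5911 to 6848 CPM in pCtrl hippocampi, with mice 37 and 10 again the highest of pCtrl, and at 5551 to 6596 CPM in PBS hippocampi. Other neuronal lists differed in direction between α-IgLON5#1 and pCtrl hippocampi. All 5 excitatory neuron genes were higher in α-IgLON5#1 (median log2 fold change 0.27), as were 6 of 8 dentate gyrus and CA genes (median 0.62). Of 6 inhibitory neuron genes, 0 were higher (median -0.18). The part of neuronal content in the Stmn2 level was not tested. Against pCtrl the log2 fold change of Stmn2 was -0.29 (SE 0.0816, 95% CI -0.46 to -0.12, adjusted p = 0.0295 by edgeR). Against PBS it was -0.04 (95% CI -0.20 to 0.12, adjusted p = 0.878). Stmn2 was 0.25 higher on the log2 scale in pCtrl than in PBS hippocampi (SE 0.0770, unadjusted p = 0.00322, adjusted p = 0.113 by edgeR), where 0 of 7 members passed beside 0.192% of all genes.

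The call for Stmn2 depended on single libraries. Without pCtrl mouse 37 the log2 fold change was -0.19 (adjusted p = 0.184 by edgeR), and it no longer passed without pCtrl mouse 10 or without α-IgLON5#1 mouse 8 or 9 either. Without both mice 10 and 37, Stmn2 differed from pCtrl by -0.13 (adjusted p = 0.621), and pCtrl from PBS by 0.09. With a covariate for tissue composition, built from genes that distinguish cortex and hippocampus in PBS mice, the value was -0.11 (adjusted p = 0.729). The covariate score, centred within a tissue, went with the groups. In hippocampi it was 0.03 to 1.71 in pCtrl, -0.88 to -0.03 in PBS and -0.91 to 0.10 in α-IgLON5#1. The covariate therefore takes up part of the group difference itself. For any gene, a call against pCtrl lost with it does not separate composition from treatment.

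Gap43 followed the same pattern with a wider spread. It was at 158, 128, 175 and 150.4 CPM in the α-IgLON5#1 hippocampi, at 214, 178, 219.7 and 182 CPM in the pCtrl hippocampi, and at 138, 135, 196, 189 and 123 CPM in the PBS hippocampi. The α-IgLON5#1 libraries lay below all pCtrl libraries and within the PBS range. The log2 fold change of Gap43 was -0.38 against pCtrl (SE 0.129, 95% CI -0.64 to -0.11, unadjusted p = 0.00693), which did not pass after adjustment by edgeR (adjusted p = 0.0736), and -0.03 against PBS (95% CI -0.28 to 0.22). DESeq2 (adjusted p = 0.0430) and edgeR without the count filter (0.0440) did pass it. Without pCtrl mice 10 and 37 the value was -0.23 (adjusted p = 0.644), and with the composition covariate -0.13 (adjusted p = 0.821). PBS mice 33 and 38, with Gap43 at 196 and 189 CPM, also had the highest cortical layer sums of the PBS hippocampi, at 279 and 271 CPM against 187 to 219.6 CPM in the other 3.

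Atf3 was the member that rose. It stood at 3.20, 1.75, 2.11 and 1.95 CPM in the α-IgLON5#1 hippocampi of mice 8, 9, 16 and 17, at 0.674, 1.07, 0.666 and 1.28 CPM in the pCtrl hippocampi of mice 10, 15, 37 and 75, and at 1.36, 0.640, 0.293, 0.564 and 0.659 CPM in the PBS hippocampi of mice 14, 32, 33, 38 and 74. Every α-IgLON5#1 library was above every control library, with mouse 8 the highest, on 31 to 69 counts a library. Against PBS the log2 fold change was 1.69 (SE 0.386, 95% CI 0.90 to 2.49, 3.23-fold, adjusted p = 0.00687 by edgeR), and Atf3 was the 1 of 7 members that passed, beside 4.29% of all genes, and the 1 whose groups did not overlap, beside 5.64%. It passed in each of 9 fits that left out 1 library (log2 fold change 1.49 to 2.03).

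Against pCtrl the log2 fold change of Atf3 was 1.28 (SE 0.395, 95% CI 0.47 to 2.09, adjusted p = 0.0483 by edgeR), near the threshold. It ranged from 1.08 to 1.47 when each library was left out in turn, and it passed in 1 of 8 such fits. The composition covariate gave 0.91 (adjusted p = 0.550). Leaving out pCtrl mice 10 and 37, which had the lowest Atf3 of the pCtrl hippocampi, gave 0.94 (adjusted p = 0.512). The pCtrl and PBS hippocampi differed by 0.41 (95% CI -0.40 to 1.22), and by 0.22 without pCtrl mouse 75 and 0.74 without PBS mouse 14.

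Immune markers were higher in the α-IgLON5#1 hippocampi as well. The summed level of 8 microglia and macrophage genes was 456, 818, 624 and 448 CPM in the α-IgLON5#1 hippocampi of mice 8, 9, 16 and 17 against 254 to 325 CPM in the other hippocampi, and 7 of the 8 genes passed as higher against each control, beside 4.23% of all genes against pCtrl and 3.81% against PBS. The remaining gene was lower and did not pass, at -0.37 against pCtrl and -0.31 against PBS on the log2 scale. B and plasma cell genes summed to 5.13 to 86.6 CPM in the 4 α-IgLON5#1 hippocampi and to at most 1.56 CPM in any control library, with 4 of 4 tested genes (of 5 listed) passed as higher against each control. At such control levels these genes may have met the count filter through the α-IgLON5#1 libraries alone, so this count of passes carries little weight. With the composition covariate, 5 of 8 and 1 of 4 passed against pCtrl, beside 200 of 20271 genes as higher, and 7 of 8 and 4 of 4 against PBS, beside 863 of 20271. The order of the 4 mice differed: mouse 8 had the highest Atf3, and mouse 9 had the lowest Atf3 and the highest microglia sum. None of these genes was at 0 over a whole group. The part of these cells in the Atf3 level was not tested.

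**Figure D2:**
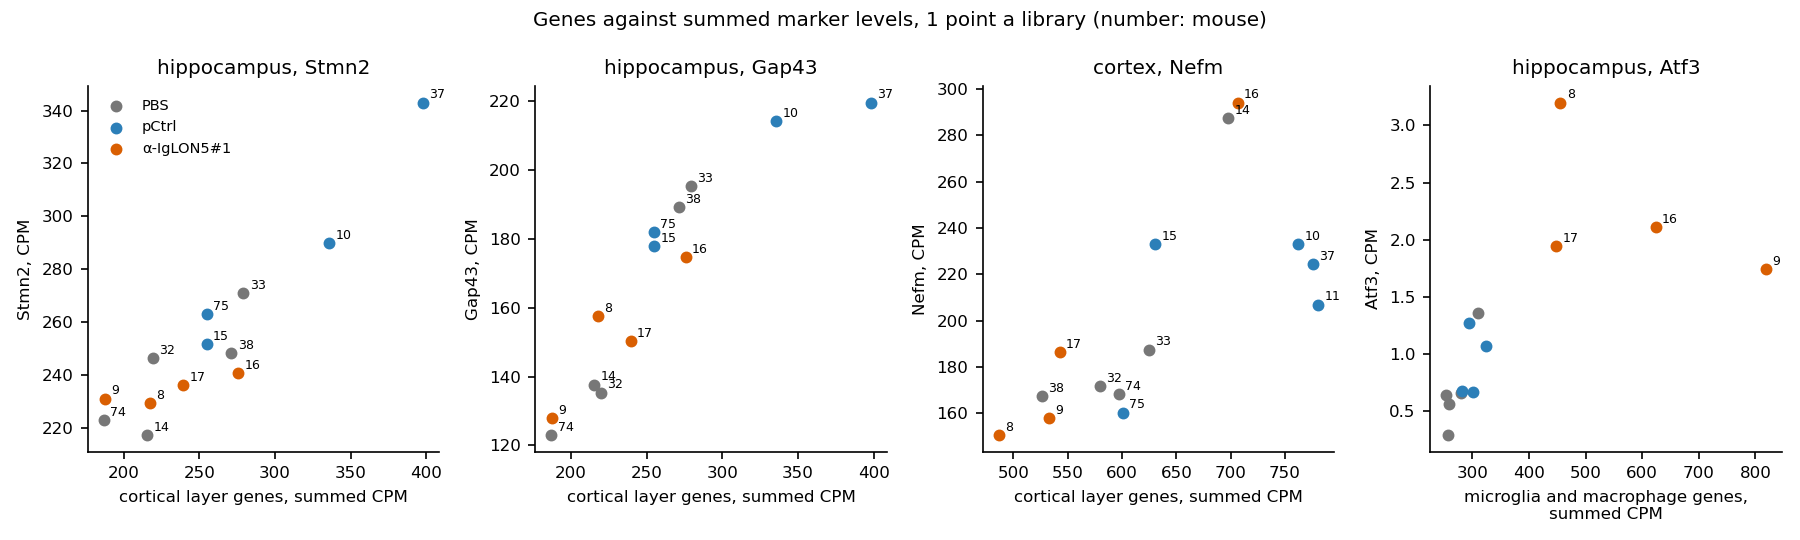
Members against summed marker levels, both in CPM, 1 point per library coloured by treatment: Stmn2 and Gap43 in the hippocampus and Nefm in the cortex against 8 cortical layer genes, and Atf3 in the hippocampus against 8 microglia genes. The pCtrl hippocampi of mice 10 and 37 lie at the upper right for Stmn2, at 336 and 398 CPM of layer genes.

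Sprr1a was close to absent. It had 0 counts in 20 of 27 libraries, and the other 7 held 1 to 4 counts each: 1 and 2 in α-IgLON5#1 hippocampi (mice 9 and 17), 1 in a pCtrl hippocampus (mouse 75), 2 and 4 in PBS hippocampi (mice 14 and 32), 2 in a PBS cortex (mouse 14) and 1 in an α-IgLON5#1 cortex (mouse 8). The 5 pCtrl cortices had 0 counts, which allows up to 0.0192 CPM, counting error alone considered. The counts were spread over treated and control groups, with 3 in all in the α-IgLON5#1 hippocampi, 1 in the pCtrl hippocampi and 6 in the PBS hippocampi, and no test is given at this depth.

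In the cortex, 0 of 7 members passed between α-IgLON5#1 and pCtrl, beside 3.46% of all genes, with 1 member at an unadjusted p under 0.05 in edgeR and 15.4% of all genes there. That member was Nefl, at 216, 225, 303 and 243 CPM in the α-IgLON5#1 cortices of mice 8, 9, 16 and 17 and at 317, 310.1, 269, 294 and 254 CPM in the pCtrl cortices of mice 10, 11, 15, 37 and 75. The groups overlapped, since α-IgLON5#1 mouse 16 lay among the pCtrl values, and the log2 difference was -0.22 (95% CI -0.44 to -0.01, adjusted p = 0.280). PBS cortices held 299, 244, 246, 205 and 237 CPM of Nefl, and α-IgLON5#1 differed from them little (log2 difference 0.00 to 2 decimals, adjusted p = 0.998), and pCtrl was 0.23 above PBS on the log2 scale (unadjusted p = 0.0248, adjusted p = 0.549). The cortical layer sum moved with Nefl: it was 762, 781 and 776 CPM in pCtrl mice 10, 11 and 37, whose Nefl was highest, 631 and 601 CPM in pCtrl mice 15 and 75, and 706 CPM in α-IgLON5#1 mouse 16 against 487 to 543 CPM in the other 3. With the composition covariate Nefl was at -0.21 against pCtrl (adjusted p = 0.398), and the part of the layers sampled was not tested further.

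Single libraries set the spread of the cortical filament genes. Nefm was 151, 158, 294 and 186 CPM in the α-IgLON5#1 cortices of mice 8, 9, 16 and 17, 233, 207, 233, 224 and 160.2 CPM in the pCtrl cortices, and 287, 172, 187, 167 and 168 CPM in the PBS cortices of mice 14, 32, 33, 38 and 74. Mice 16 and 14 held the highest value of their group for Nefl, Nefm and Ina, and also the highest cortical layer sums of their groups (706 CPM against 487 to 543, and 698 CPM against 526 to 625). Ina was 167, 172, 229.5 and 195 CPM under α-IgLON5#1, 213, 214, 226, 213 and 177 CPM under pCtrl, and 252, 181, 180.2, 171 and 171 CPM under PBS. Nefh held a narrow range, from 36.4 to 50.8 CPM over the 14 cortices.

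Neither growth gene passed in the cortex. Stmn2 averaged 309 ± 13.2 CPM under α-IgLON5#1 (n = 4), 303 ± 23.2 CPM under pCtrl (n = 5) and 318 ± 21.5 CPM under PBS (n = 5), and Gap43 averaged 230.5 ± 18.3, 209 ± 22.5 and 233 ± 25.4 CPM. Against pCtrl the log2 differences were 0.03 for Stmn2 and 0.14 for Gap43, with adjusted p of 0.911 and 0.643 in edgeR.

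Atf3 was the 1 of 7 members that passed in the cortex between α-IgLON5#1 and PBS, beside 3.05% of all genes. Its levels were 4.43, 1.88, 1.05 and 2.74 CPM in the α-IgLON5#1 cortices of mice 8, 9, 16 and 17, and 1.41, 0.946, 1.24, 0.631 and 0.770 CPM in the PBS cortices. Mouse 16 lay inside the PBS range. The log2 fold change was 1.34 (SE 0.367, 95% CI 0.58 to 2.10, 2.53-fold, adjusted p = 0.0405 by edgeR), and without α-IgLON5#1 mouse 8 it was 0.94 (adjusted p = 0.439). It passed in 3 of 9 fits that left out 1 library.

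The pCtrl cortices spanned much of the same Atf3 range. They held 2.32, 3.30, 2.21, 1.05 and 2.19 CPM in mice 10, 11, 15, 37 and 75, so that 4 of 5 pCtrl cortices lay above all PBS cortices. The log2 difference from PBS was 1.14 (95% CI 0.40 to 1.87, unadjusted p = 0.00394), which did not pass after adjustment by edgeR (adjusted p = 0.407), and 0 of all 20271 genes (0%) passed in that comparison by edgeR, where 1650 genes (8.14%) and 2 members (Atf3 and Nefl) had an unadjusted p under 0.05 and DESeq2 passed 11 genes. Between α-IgLON5#1 and pCtrl cortices Atf3 differed by 0.20 (95% CI -0.52 to 0.93), and by -0.20 without α-IgLON5#1 mouse 8 and 0.48 without mouse 16. Microglia genes summed to 434 to 515 CPM in α-IgLON5#1 cortices, 281 to 340 CPM in pCtrl cortices and 291 to 301 CPM in PBS cortices, and their part in the Atf3 level was not tested here either.

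**Figure D3:**
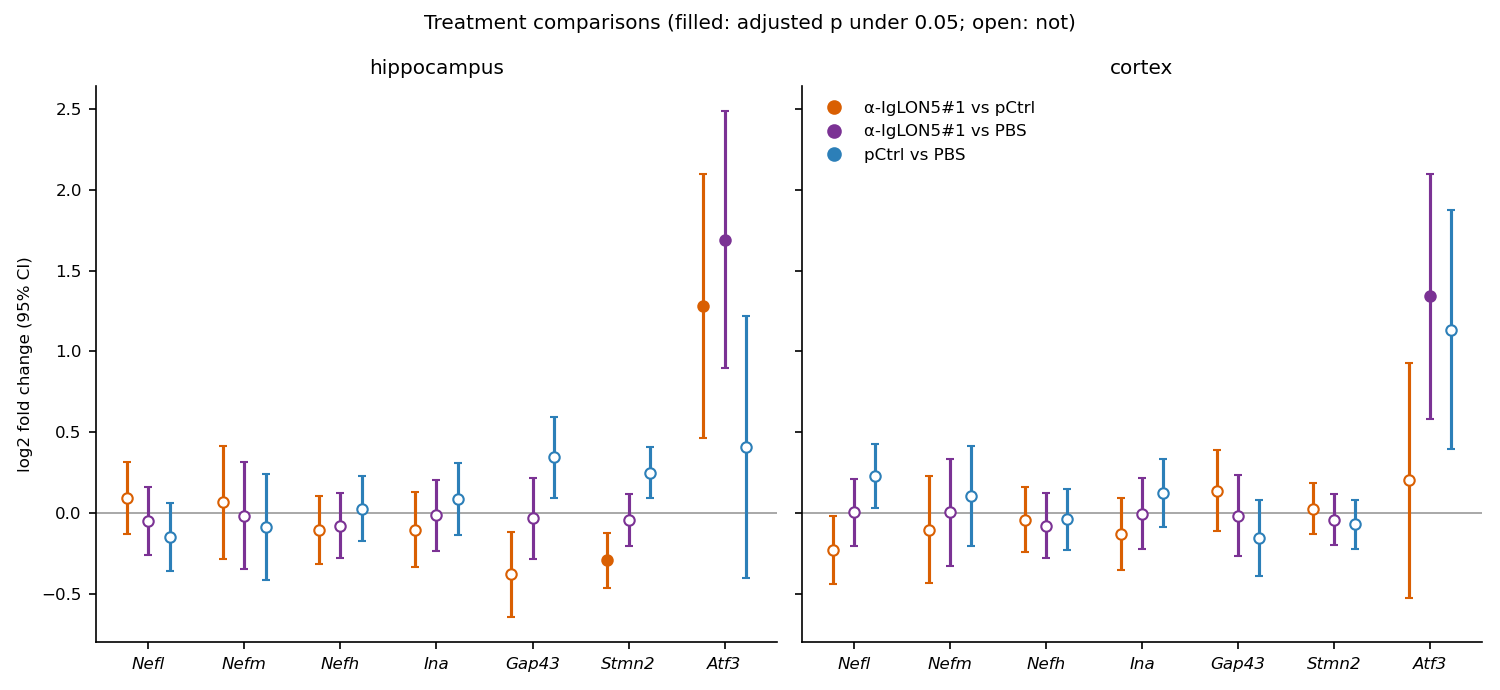
Log2 fold change of the 7 tested genes (points) with 95% confidence intervals (bars) for α-IgLON5#1 against pCtrl, α-IgLON5#1 against PBS and pCtrl against PBS, in each tissue. Filled points passed the adjusted test: Atf3 and Stmn2 against pCtrl and Atf3 against PBS in the hippocampus, and Atf3 against PBS in the cortex.

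Whether the change from pCtrl to α-IgLON5#1 differed between tissues was tested as an interaction (hippocampus minus cortex). None of the 7 members passed, beside 0% of all genes, while 3 members had an unadjusted p under 0.05 in edgeR, as had 10.6% of all genes, and DESeq2 passed 36 genes. The interaction was -0.52 for Gap43 (SE 0.177, unadjusted p = 0.00717, adjusted p = 0.278), -0.32 for Stmn2 (SE 0.112, adjusted p = 0.282), 0.32 for Nefl (SE 0.148, adjusted p = 0.444) and 1.08 for Atf3 (SE 0.530, 95% CI -0.01 to 2.17, adjusted p = 0.477). Without the hippocampi of pCtrl mice 10 and 37 the interaction was -0.40 for Gap43, -0.18 for Stmn2, 0.21 for Nefl and 0.71 for Atf3, with adjusted p from 0.818 to 0.905. The fall of Stmn2 and the rise of Atf3 in the hippocampus were therefore not shown to differ from the cortex.

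Between the tissues, the growth genes differed. In PBS mice Stmn2 was 0.40 higher in the cortex on the log2 scale (SE 0.0729, adjusted p = 0.000147 by edgeR), at 324, 318, 337, 281 and 329.6 CPM in the cortices and 217 to 271 CPM in the hippocampi, with no overlap. Gap43 was 0.58 higher (SE 0.115, adjusted p = 0.000370), at 253, 248, 225, 192 and 247 CPM against 123 to 196 CPM, and the groups overlapped at mouse 38. These were the 2 of 7 members that passed, beside 26.7% of all genes, and neither had a fold change above 2 (5.57% of all genes). Groups without overlap were found for 1 of 7 members and 17.8% of all genes. In α-IgLON5#1 mice the same pair passed with nearly the same values, 0.40 for Stmn2 (SE 0.0816, adjusted p = 0.000630) and 0.59 for Gap43 (SE 0.129, adjusted p = 0.00116), beside 23.9% of all genes (5.16% with a fold change above 2). Neither overlapped between tissues, 2 of 7 members beside 23.4% of all genes.

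In pCtrl mice the pair did not differ detectably between the tissues: the differences were 0.08 for Stmn2 (adjusted p = 0.530 by edgeR) and 0.08 for Gap43 (adjusted p = 0.723). Instead Atf3 (1.25, SE 0.377, adjusted p = 0.0188), Nefl (0.29, SE 0.102, adjusted p = 0.0463) and Nefh (-0.28, SE 0.0968, adjusted p = 0.0387) passed, 3 of 7 members beside 19.9% of all genes, with a fold change above 2 for Atf3 (4.45% of all genes). With the mouse as a block, which pairs the tissues, Nefh did not pass (-0.27, adjusted p = 0.0574) and the other 2 did. With 1 library left out, Atf3 passed in 6 of 9 fits and Nefl and Nefh in 3 of 9 each. Without the hippocampi of mice 10 and 37 none of these 3 passed, with Atf3 at 0.91 (adjusted p = 0.201), Nefl at 0.20 (0.300) and Nefh at -0.09 (0.641), whereas Stmn2 passed at 0.24 (0.0375).

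Both tissues were sequenced from 13 mice. Stmn2 was higher in the cortex in 12 of 13 mice, the exception being pCtrl mouse 37 (log2 difference -0.37), and Gap43 in 11 of 13, the exceptions being pCtrl mice 37 (-0.33) and 10 (-0.06). Atf3 was higher in the cortex in 12 of 13 mice (median log2 difference 0.48), with α-IgLON5#1 mouse 16 at -1.002. Nefh went the other way and was lower in the cortex in 11 of 13 mice (median -0.21), while Ina was higher in 11 of 13 (median 0.21), Nefm in 8 of 13 and Nefl in 5 of 13. The sign of the neurofilament difference thus varied by subunit.

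**Figure D4:**
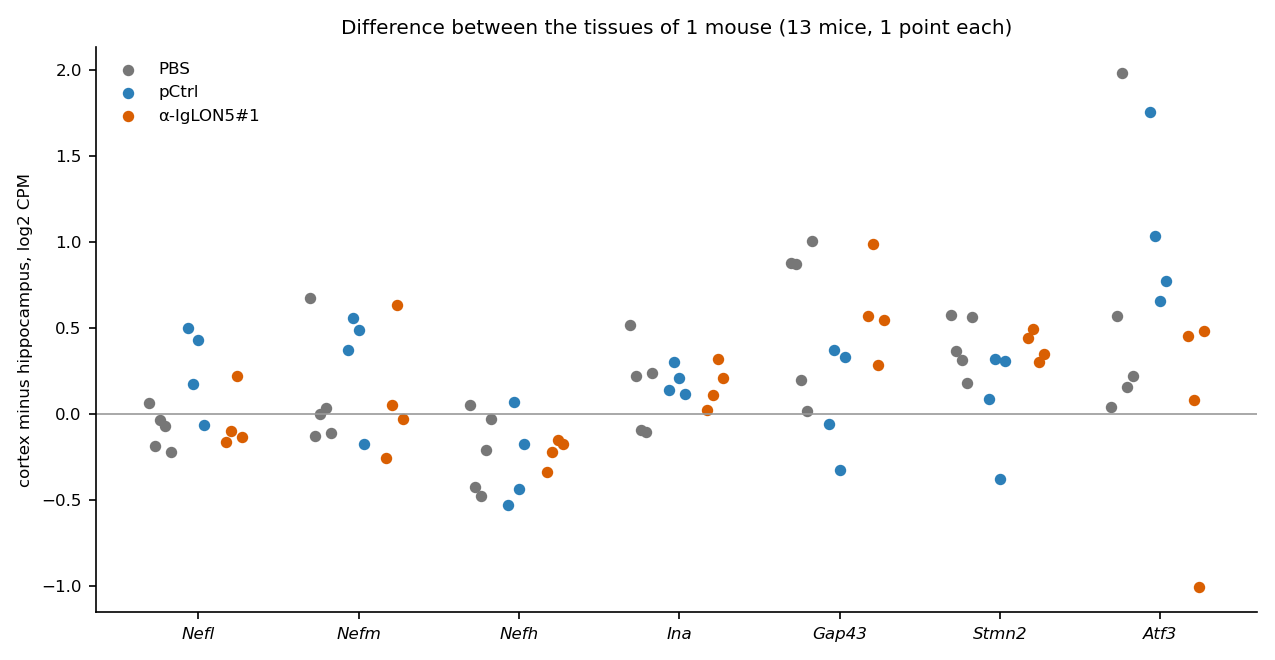
Cortex minus hippocampus difference in log2 CPM of the 7 tested genes within each of 13 mice, 1 point per mouse coloured by treatment, with a line at 0. Stmn2 lies above 0 in 12 mice and Nefh below 0 in 11, and pCtrl mouse 37 is the lowest for both Stmn2 and Gap43.

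After subtraction of the group means, the members fell into pairs that varied together over the 27 libraries. Pearson's r in log2 CPM was 0.789 for Nefl with Nefm, 0.779 for Nefm with Ina and 0.753 for Gap43 with Stmn2, given as a description because these libraries share mice, dissection and depth. By tissue, with no test of the difference, Nefl with Nefm was at 0.881 over the 14 cortices and 0.567 over the 13 hippocampi, Nefm with Ina at 0.964 and 0.0263, and Nefl with Ina at 0.853 and -0.505. Gap43 with Stmn2 was at 0.885 and 0.687. By the same measure, the genes closest to each member among expressed protein-coding genes were Bdnf (0.902), 2510009E07Rik and Scp2 for Nefl, Phf21b (0.915), Csdc2 and Ccdc9 for Nefm, Kcnj10 (0.820), Cntnap1 and Zfp385a for Nefh, and Wipf2 (0.931), Samd4b and Stip1 for Ina. For Gap43 they were Slc35f1 (0.883), Nrsn2 and Grm8, for Stmn2 Ppp2r2b (0.924), Tubb3 (0.889) and 4930452B06Rik, and for Atf3 Btg1 (0.814), Adamts1 and Rer1.

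The wider machinery of axons was followed in 7 lists, 67 genes, all tested. In the hippocampus against pCtrl, 1 of 11 stathmins and growth cone genes, 1 of 9 microtubule and spectrin genes and 2 of 9 degeneration signalling genes passed, all as lower, beside 2.78% of all genes, with list medians of -0.16, -0.02 and -0.03 on the log2 scale beside 0.00 for all genes. They were Stmn1, the broadly expressed stathmin (125 ± 18.5 against 183 ± 41.1 CPM, -0.55, SE 0.140, adjusted p = 0.0180 by edgeR, n = 4 and 4), Tubb3, the neuronal β-tubulin (216 ± 14.4 against 273 ± 41.9 CPM, -0.34, adjusted p = 0.0269), and the JNK kinases Mapk8 (99.9 ± 12.7 against 134 ± 16.4 CPM, -0.42, adjusted p = 0.00148) and Mapk9 (-0.21, adjusted p = 0.0266). None of the 29 genes of these lists passed against PBS, beside 4.29% of all genes. Stmn1, Tubb3 and Mapk9 each passed in 4 of 8 fits that left out 1 library and Mapk8 in 8 of 8, but without pCtrl mice 10 and 37 none of the 4 did, at -0.25, -0.15, -0.16 and -0.27 for Stmn1, Tubb3, Mapk9 and Mapk8.

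Among 5 other intermediate filament genes, Gfap, the filament of astrocytes, rose from 452 ± 51.4 CPM in pCtrl and 433 ± 96.9 CPM in PBS to 1120.2 ± 289 CPM in α-IgLON5#1 hippocampi (log2 fold changes 1.31 and 1.37, adjusted p = 0.00262 and 0.000526 by edgeR). Without pCtrl mice 10 and 37, which left mice 15 and 75 as the only pCtrl hippocampi, its difference from pCtrl was 1.21 (adjusted p = 0.116). With the composition covariate it was 0.80 (adjusted p = 0.331). The call against pCtrl was lost in both, although the groups did not overlap (732 to 1380 CPM against 388 to 514 CPM). Against PBS the difference was 1.42 with the covariate and passed. Gfap also rose in the cortex (1.46 and 1.39). There it passed in 9 of 9 fits that left out 1 library in each comparison, with log2 fold changes as low as 0.98 and 0.91 and the highest adjusted p without α-IgLON5#1 mouse 8. It was the 1 list gene of 67 that passed in the cortex in either comparison, beside 3.46% of all genes against pCtrl and 3.05% against PBS. Vim, of glia and vessels, rose against PBS (71.7 ± 13.7 against 42.0 ± 5.72 CPM, 0.77, adjusted p = 0.00861), and did not pass without α-IgLON5#1 mouse 8 (adjusted p = 0.0628). Prph, the filament of peripheral neurons, fell against pCtrl (-1.28, adjusted p = 0.0382), where its levels were 6.29 and 8.35 CPM in mice 10 and 37 and 3.23 and 2.28 CPM in mice 15 and 75. It passed in 4 of 8 fits that left out 1 library, and without mice 10 and 37 it was at -0.41 and did not pass (adjusted p = 0.785 by edgeR). Nes and Synm, the remaining filament genes, did not pass in either comparison.

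The 16 injury and regeneration genes, partners of Atf3 in severed peripheral neurons, gave 0 passes in the hippocampus against pCtrl (median -0.09, from -0.36 to 1.45), beside 7.01% of all genes, and 2 against PBS, both as higher (median 0.09), beside 3.81% of all genes. Both belong to cytokine signalling. Socs3 stood at 23.1 CPM in α-IgLON5#1 mouse 8 and at 2.82, 4.32 and 3.70 CPM in mice 9, 16 and 17, against 1.94 to 2.46 CPM in PBS (log2 fold change 1.90, adjusted p = 0.0274 by edgeR). Stat3 was 122, 67.7, 67.0 and 51.0 CPM against 42.8 to 53.3 CPM (0.68, adjusted p = 0.0439). Mouse 8, the library with the highest Atf3, was the highest for both, and without it neither passed (Socs3 0.70, adjusted p = 0.570, and Stat3 0.37, adjusted p = 0.392). Over 9 fits that left out 1 library each, Socs3 passed in 4 and Stat3 in 3, with calls also lost without single PBS mice.

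The list's other genes included Jun, the partner of Atf3 in dimers, at 149.9 ± 20.8 CPM against 123 ± 30.1 CPM in pCtrl (0.28, adjusted p = 0.313 by edgeR), and Sox11, a transcription factor of growing neurons, at -0.19 (adjusted p = 0.407). Of 8 genes of the ATF stress response, which Atf4 leads and in which Atf3 takes part, none passed in any of the 4 comparisons of α-IgLON5#1 with a control (beside 3.05% to 7.01% of all genes, so that 0 of 8 is near the background), and they ran from -0.16 to 0.05 in the hippocampus against pCtrl, with Atf4 at -0.13 and Ddit3 at -0.08. None of 9 axonal transport motors passed in these comparisons either, again near the same background (median -0.10 and range -0.23 to 0.06 against pCtrl in the hippocampus).

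**Figure D5:**
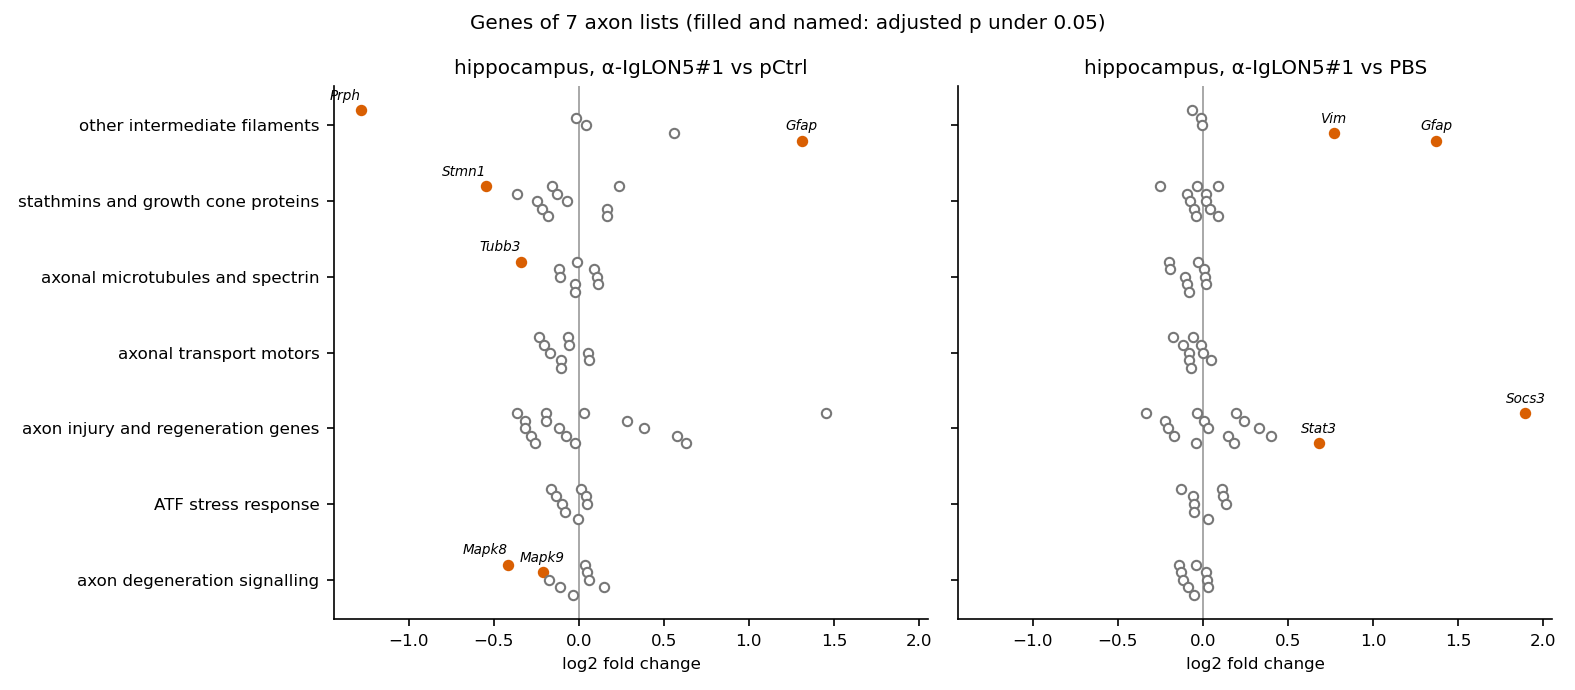
Log2 fold change in the hippocampus of every gene in 7 axon lists, for α-IgLON5#1 against pCtrl and against PBS, 1 point per gene, filled where the adjusted test passed. The points that passed as lower stand in the comparison with pCtrl alone, and Gfap is filled in both.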

How the data were processed

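Poly(A) RNA of cortex and hippocampus had been sequenced in paired-end mode from stranded libraries. The authors aligned reads to GRCm38 with STAR and deposited raw counts per gene; the counting program, annotation and strand setting are not given in the sources used here. Of 55487 identifiers, 55227 matched GENCODE M21 without the version and 260 did not. All 27 libraries were used, 0 columns were left unassigned, and depth is given in the report. Libraries of a group were separate samples (lowest chi-square per degree of freedom 4.54 over 48 pairs).

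Counts were filtered (at least 10 in at least 4 libraries, 20271 genes), normalized with TMM and tested with edgeR 4.0.16 (quasi-likelihood F test, 6 groups, no covariate) in R 4.3.3, with Benjamini-Hochberg adjustment over all genes. Passed means an adjusted p under 0.05. Standard errors are the log2 fold change divided by the root of F. Intervals (95%) and p-values measure the spread between the libraries of a group, estimated over all 6 groups together. The main fit treats the libraries as independent, although 13 mice gave both tissues. Log2 CPM used a prior count of 1. Sprr1a, below the filter, is given by its counts: the permutation test planned on its log2 CPM is not reported, because at 0 counts that value follows library depth. The steps were tested on simulated counts. Alternatives were DESeq2 1.42.0, RLE factors, other count filters, only the groups compared, a tissue composition covariate (100 genes per side), animals 8 to 17, each library left out, a fold change above 2 and, for tissues, the mouse as a block. Leaving out pCtrl hippocampi 10 and 37 was added after seeing the data. The number in a title was taken as the mouse, since a mouse gives 1 library per tissue; deviations from the group means correlated between the tissues of a mouse at -0.05 to 0.46 (median 0.19, above 0.1 in 8 of 13 mice).

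The members, gene lists and tests were chosen with earlier results of these data known. Named genes are the members, up to 3 passed genes per list and comparison, and for each member the 3 protein-coding genes (mean log2 CPM above 3) with the highest r; Atf4, Ddit3, Jun, Sox11, Nes and Synm were named after their values were seen.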

Additional observations from a re-analysis of the deposited data

Results flagged for a closer look

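In 3 of 42 sets of libraries (1 gene in 1 group), the highest or lowest library stood off from the rest by Dixon's criterion, and chance flags about 1 in 20 such sets. Nefm in PBS cortices was 287 CPM in mouse 14 against 167 to 187 CPM in the other 4. Ina in PBS cortices was 252 CPM in the same mouse against 171 to 181 CPM. Ina in pCtrl cortices was 177 CPM in mouse 75 against 213 to 226 CPM in the other 4. The cortical layer sum was the highest of its group in mouse 14 (698 CPM) and the lowest of its group in mouse 75 (601 CPM), and the part of the layers sampled in these values was not tested.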

How the results depend on the processing

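Of 1162 recomputed values of single members, 1107 kept their side of the threshold, 47 calls were lost, 8 were gained and 0 reversed, and 67 changed sign with neither value passed. The rise of Atf3 against PBS in the hippocampus passed in every setting run. In the hippocampus against pCtrl, where 2 members passed, 1 passed with a fold change above 2 or with only the groups compared, and 0 passed with the composition covariate, with animals 8 to 17 or without pCtrl mice 10 and 37. Stmn2 there was at -0.29 with only the groups compared (adjusted p = 0.133 by edgeR) and -0.21 with animals 8 to 17 (0.196), and Atf3 was at 1.24 without the count filter (0.0539) and 1.35 with animals 8 to 17 (0.260), while DESeq2 gave 0.0182 for Atf3, 0.00997 for Stmn2 and 0.0430 for Gap43, which edgeR without the count filter passed as well (0.0440). In the cortex against PBS, 1 member passed and 0 with only the groups compared (Atf3, adjusted p = 0.148). Between tissues, a fold change above 2 left 0 of 2 members in PBS mice, 1 of 3 in pCtrl mice and 0 of 2 in α-IgLON5#1 mice. Without the hippocampi of mice 10 and 37, 0 of the 3 in pCtrl mice passed and Stmn2 was gained, 1 member in all. The cause of these changes was not tested.

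Over the fits that leave out 1 library each, the members passed ranged from 0 to 2 for the hippocampus against pCtrl, 1 to 1 against PBS, 0 to 1 for pCtrl against PBS (Stmn2 passed at 0.31, adjusted p = 0.0301, without pCtrl mouse 15), 0 to 1 for the cortex against PBS, 2 to 3 for tissues in PBS mice, 0 to 3 in pCtrl mice and 2 to 2 in α-IgLON5#1 mice, and 0 to 0 elsewhere. Gap43 against pCtrl passed in 1 of 8 such fits (without α-IgLON5#1 mouse 16, adjusted p = 0.0380).

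With the mouse as a replicate block, pairing the tissues, 2 members passed in PBS mice, 2 of 3 in pCtrl mice (Nefh at -0.27, adjusted p = 0.0574), 2 in α-IgLON5#1 mice and 0 in the interaction; no other call changed.

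Counts over all genes moved more. Of 1420 genes passed in the hippocampus against pCtrl (857 higher, 563 lower), 391 passed with only the groups compared, 202 with the composition covariate (200 higher, 2 lower), 57 with animals 8 to 17 and 244 without pCtrl mice 10 and 37. Against PBS, 869 passed, 576 with at least 10 counts in every library and 567 with only the groups compared. In the cortex, 701 passed against pCtrl, and 420 under the filter of 10 counts in every library, 314 with only the groups compared, 390 with the composition covariate and 10 with animals 8 to 17, and 618 against PBS, with 365 and 314 under the stricter filter and only the groups compared. For pCtrl against PBS hippocampi, 39 passed, 538 by DESeq2, 106 without the filter and 0 with only the groups compared, the composition covariate or without mice 10 and 37. Low counts limit Atf3 and Sprr1a.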
